A study of Homo sapiens with 9 samples.

Results

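The 10 genes described here are the oxidative stress regulators NFE2L2 (which encodes NRF2), KEAP1, BACH1 and MAFG and the direct targets NQO1, TXNRD1, SRXN1, ME1, OSGIN1 and TRIM16L. They were taken by gene name from a table of 37118 genes, and all 10 were found, each in 1 row. Transcripts were measured by sequencing polyadenylated RNA from A375 cells, a human melanoma line labelled as wild type, in a study of metformin and ferroptosis. Cells received metformin, a biguanide used against type 2 diabetes, at 0, 20 or 40 mM, with 3 libraries per dose and 9 in all. The labels give no duration of treatment and no agent other than metformin, and do not say whether replicates were separate cultures, so p-values reflect only how these libraries scatter, and that scatter can be technical. All 10 genes had a mean of at least 1 FPKM (fragments scaled to transcript length and library depth) over the 9 libraries and were tested, among 12394 genes.

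NRF2 is a CNC-family transcription factor that pairs with a small MAF protein such as MAFG on antioxidant response elements in DNA. In unstressed cells KEAP1 holds NRF2 for ubiquitination by a CUL3 ligase, and modification of KEAP1 cysteines by electrophiles lets NRF2 accumulate. NRF2 is thus set mainly at the level of the protein, which was not measured here. BACH1 is a heme-sensitive CNC repressor that competes for the same elements. Targets of NRF2 include enzymes of thioredoxin, glutathione, NADPH and iron metabolism, some of which oppose the lipid peroxidation of ferroptosis.

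Short letter patterns were sought in the RefSeq promoter windows (build GRCh38.p14), as the 250 bases before each annotated start, of the 9 genes matched by symbol. The core letters of antioxidant response elements, TGACNNNGC, were read on both strands. They stood in windows of 3 of the 9 genes, TXNRD1, ME1 and KEAP1, and in 13.2% of all 27305 genes with a window. The letters TGANTCA read the same on both strands, lack the GC of that core and can overlap it. They stood in ME1, OSGIN1 and BACH1, and in 8.06% of all genes. The OSGIN1 and BACH1 windows held no TGACNNNGC. The stretches with matches that lie outside GENCODE 29 exons are shown because they belong to the targets whose levels are given next, with the matched letters in capitals.
TXNRD1, first start, chr12:104215620-104215748, plus strand: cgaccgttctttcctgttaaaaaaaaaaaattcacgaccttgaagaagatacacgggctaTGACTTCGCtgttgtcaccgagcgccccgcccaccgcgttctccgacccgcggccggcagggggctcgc
ME1, chr6:83431120-83431248, minus strand: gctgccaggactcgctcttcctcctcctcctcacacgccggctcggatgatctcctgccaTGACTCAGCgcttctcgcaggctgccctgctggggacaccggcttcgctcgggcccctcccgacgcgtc
OSGIN1, a start inside the listed gene, chr16:83953083-83953209, plus strand: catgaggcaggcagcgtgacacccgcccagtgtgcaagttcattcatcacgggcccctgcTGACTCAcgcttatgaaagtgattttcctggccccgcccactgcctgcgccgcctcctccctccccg
TXNRD1 has a further start inside the gene, whose window holds the reverse complement of the core. The 129 bases around that match lie within GENCODE 29 exons, and the match is printed with 10 bases on either side, a stretch at chr12:104286920-104286948 (plus strand): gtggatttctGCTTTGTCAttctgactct
These matches are a description of letters, and their part in the levels was not tested. KEAP1 held 2 of them (TGACACGGC and GCTTAGTCA), in a window inside the listed gene, and the stretches around them lie wholly within GENCODE 29 exons. The BACH1 stretch also lies inside its listed gene, with 51 of its 108 bases in such exons. NFE2L2, MAFG, NQO1 and SRXN1 had neither motif in these windows. Bases further than 250 before a start, or after it, were not searched.

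Library totals ran from 65738242 to 75629413 counts, and the 10 genes held between 1136 counts (OSGIN1, 0 mM) and 115170 counts (NQO1, 40 mM) per library. Within 40 mM, replicate 3 was distant from its fellows, at -22.6 on the second principal component where replicates 1 and 2 were at 17.7 and 15.2, and it had the lowest total. Transcripts of the mitochondrial genome were 4.36% of its counts, where they were 3.01% and 3.27% in the other two. Of 9 melanocyte lineage markers, SOX10 stood at 70.7 to 114 FPKM, S100B at 5.27 to 12.3 FPKM and MITF at 2.43 to 3.40 FPKM, while the pigment genes PMEL, MLANA, TYR, TYRP1 and DCT were all under 1 FPKM. The summed level of the 9 was 107 to 132 FPKM at 0 mM, 108 to 116 FPKM at 20 mM and 82.2 to 121 FPKM at 40 mM. S100B fell by 0.80 ± 0.15 (log2, adjusted p = 8.0e-04) at 40 against 0 mM and PAX3 rose by 0.32 ± 0.09 (adjusted p = 0.011), both by edgeR. Of 10 markers of blood, epithelial, endothelial, erythroid and liver cells, 8 were listed, PTPRC, CD3E and ALB at or near 0. Their summed level, nearly all of it KRT14, was 7.14 to 8.02 FPKM at 0 mM, 6.49 to 7.33 FPKM at 20 mM and 9.01 to 9.80 FPKM at 40 mM. The part of these differences in the results was not tested. In bulk RNA, fewer cells that express a gene and less RNA per cell cannot be told apart.

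Most of the 10 genes were higher with metformin, by 1.7-fold or less, and none was called lower in any comparison. A call is an adjusted p under 0.05 by edgeR's quasi-likelihood test with Benjamini-Hochberg adjustment over all 12394 genes, and "rose" and "fell" refer to calls. At 20 against 0 mM 7 of the 10 rose and the median of their log2 fold changes was 0.25, beside 0.00 for all tested genes, of which 16.3% were called higher and 15.2% lower. At 40 against 0 mM 8 of the 10 rose, with a median of 0.39, where 28.8% of all genes were called higher and 27.4% lower. At 40 against 20 mM 2 of the 10 rose, with a median of 0.08, where 14.3% were called higher and 15.1% lower. With total count scaling the genes called in that comparison were 2309 higher and 1447 lower, where they were 1770 and 1867 with TMM scaling. The first pair of comparisons shares the 0 mM libraries. Without replicate 3 of 40 mM 8 rose and KEAP1 fell at 20 against 0 mM, where that library enters only through the shared estimate of the spread, 9 rose at 40 against 0 mM and 4 at 40 against 20 mM. Leaving out any 1 of replicate 2 or 3 of 20 mM or replicate 1 of 40 mM left 1 riser at 40 against 20 mM.

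**Figure D1:**
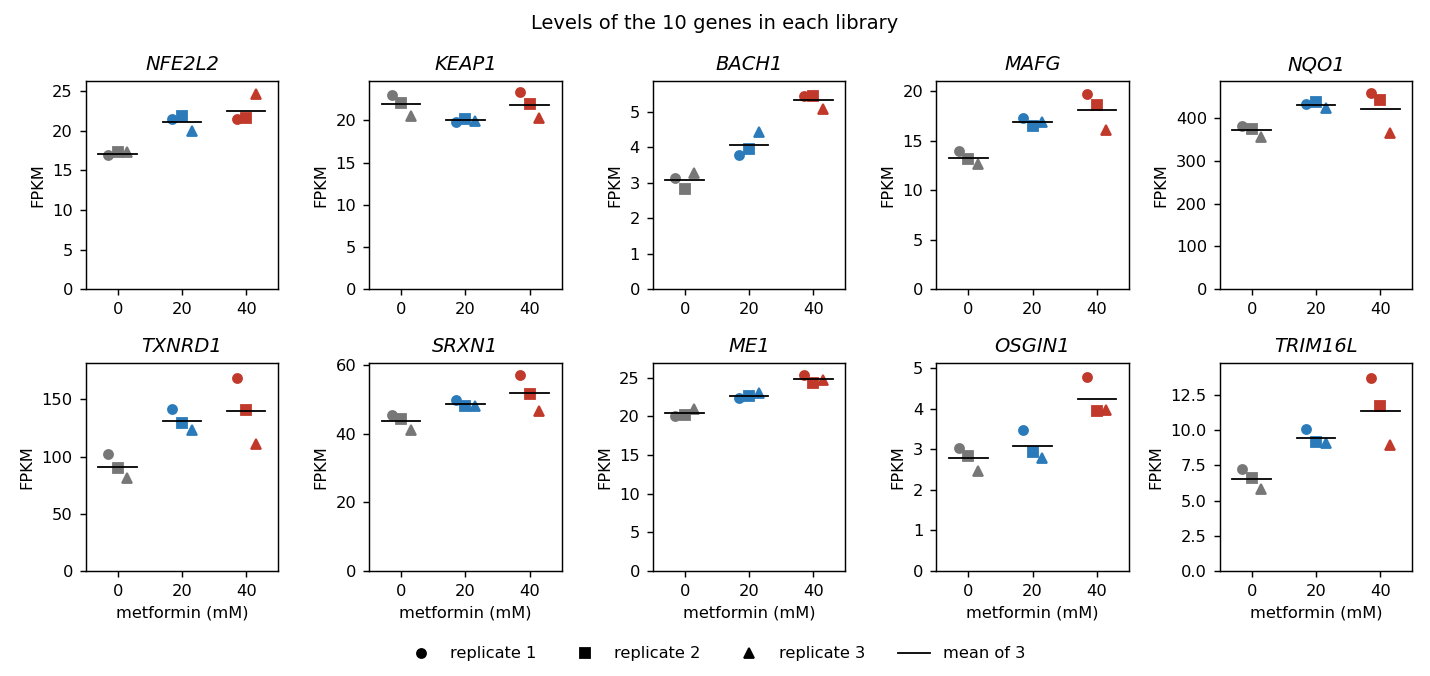
FPKM (vertical axis, from 0) of each gene by metformin dose in mM (horizontal axis). Symbols are the 3 libraries of a dose and the line is their mean. BACH1 libraries lie at 2.81 to 3.28 FPKM at 0 mM, 3.79 to 4.43 FPKM at 20 mM and 5.06 to 5.45 FPKM at 40 mM, and KEAP1 stays between 19.8 and 23.3 FPKM.

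Levels of the 10 genes spanned more than 2 orders of magnitude per length. At 0 mM NQO1 was highest at 371 FPKM, then TXNRD1 at 90.9, SRXN1 at 43.5, KEAP1 at 21.9, ME1 at 20.4, NFE2L2 at 17.1, MAFG at 13.3, TRIM16L at 6.56, BACH1 at 3.08 and OSGIN1 at 2.78 FPKM. Neighbours in this order did not overlap between libraries except KEAP1 with ME1, and BACH1 with OSGIN1. With metformin KEAP1 passed below NFE2L2 in mean level, to 20.0 against 21.1 FPKM at 20 mM and 21.8 against 22.5 FPKM at 40 mM, with overlapping libraries at both doses. At 40 mM that order rests on replicate 3, since KEAP1 was above NFE2L2 in replicates 1 and 2, at 23.3 against 21.4 FPKM and 21.9 against 21.6 FPKM.

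Among the regulators, NFE2L2 (ENSG00000116044, chromosome 2, 177227595 to 177287777, minus strand) stood at 16.9, 17.3 and 17.3 FPKM at 0 mM, 21.4, 21.8 and 20.0 FPKM at 20 mM and 21.4, 21.6 and 24.6 FPKM at 40 mM. Every library with metformin lay above the 3 without, and the 2 doses overlapped. It rose by 0.29 ± 0.06 (log2 fold change ± SE, n = 3 per dose) at 20 against 0 mM (edgeR adjusted p = 0.0034) and by 0.36 ± 0.06 at 40 against 0 mM (adjusted p = 3.4e-04). Between 40 and 20 mM the difference was 0.07 ± 0.06 (adjusted p = 0.42), and without replicate 3 of 40 mM it was -0.00.

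KEAP1, the adaptor that delivers NRF2 to its ligase (ENSG00000079999, chromosome 19, 10486125 to 10503356, minus strand), was the regulator with the least difference at 40 mM. It stood at 23.0, 22.1 and 20.5 FPKM at 0 mM, 19.8, 20.1 and 19.9 FPKM at 20 mM and 23.3, 21.9 and 20.3 FPKM at 40 mM. The 20 mM libraries all lay below those at 0 mM, and the 40 mM libraries spanned them. The difference was -0.14 ± 0.06 at 20 against 0 mM by edgeR (adjusted p = 0.098) and -0.04 ± 0.06 at 40 against 0 mM (adjusted p = 0.61). The first was called as a fall when replicate 3 of 0 mM was left out (-0.18, adjusted p = 0.047), when replicate 3 of 40 mM was (-0.14, adjusted p = 0.041) and with only the 6 libraries compared (-0.13, adjusted p = 0.045). The second was 0.01 with total count scaling and when either replicate 1 of 0 mM or replicate 3 of 40 mM was left out.

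BACH1, the repressor (ENSG00000156273, chromosome 21, 29194071 to 29630751, plus strand), moved most among the regulators. It stood at 3.14, 2.81 and 3.28 FPKM at 0 mM, 3.79, 3.95 and 4.43 FPKM at 20 mM and 5.43, 5.45 and 5.06 FPKM at 40 mM. No libraries of different doses overlapped. It rose 1.32-fold at 20 against 0 mM (0.40 ± 0.08, edgeR adjusted p = 0.0029), 1.69-fold at 40 against 0 mM (0.75 ± 0.08, adjusted p = 1.3e-05) and 1.28-fold at 40 against 20 mM (0.36 ± 0.08, adjusted p = 0.0055). All 3 calls were kept under each of the 17 alternatives that tested the gene. Its listed span holds LINC00189 and the pseudogene GAPDHP14 on the same strand, at means of 4.05 and 4.02 FPKM against 4.15 FPKM for BACH1. LINC00189 holds 2.56% of the 100-base words of BACH1 transcripts.

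MAFG, the small MAF partner (ENSG00000197063, chromosome 17, 81918270 to 81927735, minus strand), stood at 14.0, 13.2 and 12.7 FPKM at 0 mM, 17.3, 16.5 and 16.9 FPKM at 20 mM and 19.7, 18.6 and 16.1 FPKM at 40 mM. Every library with metformin lay above those without. It rose by 0.34 ± 0.07 at 20 against 0 mM (edgeR adjusted p = 0.0038) and by 0.41 ± 0.07 at 40 against 0 mM (adjusted p = 4.3e-04). Between 40 and 20 mM it differed by 0.07 ± 0.07 (adjusted p = 0.46), and was called at 0.15 (adjusted p = 0.047) without replicate 3 of 40 mM, the lowest of its dose.

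**Figure D2:**
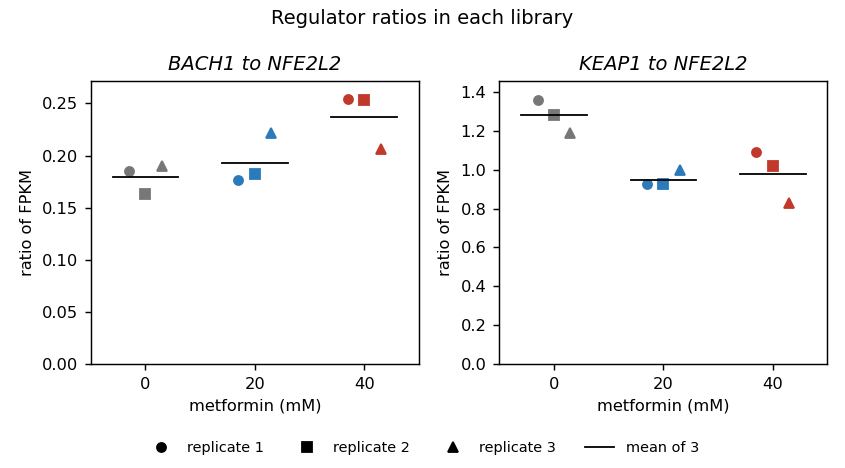
Ratio of BACH1 to NFE2L2 and of KEAP1 to NFE2L2 in FPKM (vertical axes, from 0) by metformin dose in mM. Symbols are libraries and lines are means of 3. The 40 mM libraries of the first ratio lie at 0.206 to 0.254, above those at 0 mM, and the metformin libraries of the second lie at 0.826 to 1.09, below those at 0 mM.

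Repressor and activator were then set against each other within each library, to ask whether they moved in proportion. BACH1 per NFE2L2 averaged 0.237 ± 0.0275 at 40 mM and 0.179 ± 0.0147 at 0 mM (SD, n = 3 each). The libraries did not overlap, a log2 difference of 0.40 (exact two-sided permutation p = 0.1, the smallest that 3 against 3 libraries can give). At 20 mM the ratio was 0.193 ± 0.0247, which overlapped that at 0 mM (log2 difference 0.10, exact permutation p = 0.6). KEAP1 per NFE2L2 averaged 0.949 ± 0.0413 at 20 mM and 1.28 ± 0.0836 at 0 mM, with no overlap (log2 difference -0.43, exact permutation p = 0.1). At 40 mM it averaged 0.976 ± 0.135, again below every library at 0 mM (log2 difference -0.39, exact permutation p = 0.1). Its lowest library was replicate 3 of 40 mM, at 0.826 against 1.09 and 1.02.

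Among the targets, TXNRD1, the selenoprotein that reduces thioredoxin (ENSG00000198431, chromosome 12, 104215779 to 104350307, plus strand), stood at 102, 89.9 and 81.2 FPKM at 0 mM, 142, 129 and 123 FPKM at 20 mM and 169, 141 and 111 FPKM at 40 mM. Every library with metformin lay above the 3 without, though replicate 3 of 40 mM lay below all 20 mM libraries. It rose 1.44-fold at 20 against 0 mM (0.53 ± 0.13, edgeR adjusted p = 0.012) and 1.51-fold at 40 against 0 mM (0.59 ± 0.13, adjusted p = 0.0028). Between 40 and 20 mM the difference was 0.06 ± 0.13 (adjusted p = 0.75) and ran from -0.09 without replicate 1 of 40 mM to 0.21 without replicate 3. The pseudogene RPL18AP3 lies inside TXNRD1 on the same strand at a mean of 138 FPKM, and the genes share none of their 100-base words.

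TRIM16L, a shorter relative of the ubiquitin ligase TRIM16 (ENSG00000108448, chromosome 17, 18697998 to 18736118, plus strand), stood at 7.23, 6.60 and 5.84 FPKM at 0 mM, 10.1, 9.20 and 9.13 FPKM at 20 mM and 13.7, 11.7 and 8.96 FPKM at 40 mM. It rose 1.44-fold at 20 against 0 mM (0.52 ± 0.13, edgeR adjusted p = 0.011) and 1.70-fold at 40 against 0 mM (0.77 ± 0.13, adjusted p = 5.0e-04). BACH1, at 0.75 ± 0.08, was close to it, and TRIM16L was the lower of the pair without replicate 3 of 0 mM (0.69) or replicate 1 of 40 mM (0.62). Between 40 and 20 mM it was at 0.24 ± 0.13 (adjusted p = 0.18), and was called at 0.39 (adjusted p = 0.009) without replicate 3 of 40 mM. TRIM16 holds 18.5% of the 100-base words of TRIM16L transcripts, so reads may be split between them. TRIM16 itself rose by 0.48 ± 0.11 (adjusted p = 0.0077) at 20 against 0 mM and 0.67 ± 0.11 (adjusted p = 4.0e-04) at 40 against 0 mM.

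OSGIN1, an oxidative stress induced growth inhibitor (ENSG00000140961, chromosome 16, 83931311 to 83966332, plus strand), was called at 40 against 20 mM, where TXNRD1 was not, and no test compared them. It stood at 3.03, 2.83 and 2.46 FPKM at 0 mM, 3.49, 2.94 and 2.80 FPKM at 20 mM and 4.78, 3.96 and 3.97 FPKM at 40 mM. The 0 and 20 mM libraries overlapped, and every 40 mM library lay above both. It was at 0.15 ± 0.11 at 20 against 0 mM (edgeR adjusted p = 0.36) and rose by 0.58 ± 0.11 at 40 against 0 mM (adjusted p = 0.0013). It rose by 0.43 ± 0.11 at 40 against 20 mM (adjusted p = 0.016), a call that 3 libraries decided. The adjusted p was 0.062 with replicate 2 of 20 mM left out (0.40), 0.067 with replicate 3 of that dose left out (0.37) and 0.058 with replicate 1 of 40 mM left out (0.33). MLYCD lies over part of it on the same strand, at a mean of 0.451 FPKM. Other annotated genes hold 9.79% of the 100-base words of OSGIN1, 11.1% of those of NQO1 and 10.3% of those of NFE2L2. Words were counted on either strand, and the gene listed as overlapping NQO1 lies on the opposite strand, at a mean of 0.0369 FPKM.

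NQO1, the quinone reductase often read as the index of NRF2 activity (ENSG00000181019, chromosome 16, 69706996 to 69726668, minus strand), stood at 382, 375 and 356 FPKM at 0 mM, 432, 437 and 424 FPKM at 20 mM and 458, 443 and 364 FPKM at 40 mM. The 20 mM libraries all lay above those at 0 mM, and replicate 3 of 40 mM fell within the 0 mM range. The difference was 0.21 ± 0.07 at 20 against 0 mM by edgeR (adjusted p = 0.042), a call lost without any 1 of the 6 libraries compared (0.18 to 0.24, adjusted p = 0.058 to 0.13), with no filter (adjusted p = 0.13) and by limma (adjusted p = 0.073 and 0.072). At 40 against 0 mM it was 0.15 ± 0.07 (adjusted p = 0.094), and was called without replicate 3 of 40 mM (0.24, adjusted p = 1.8e-04), with total count scaling (0.20) and with a filter at 5 FPKM (0.17). Between 40 and 20 mM it was -0.06 ± 0.07 (adjusted p = 0.54), and 0.03 without replicate 3 of 40 mM.

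SRXN1, the sulfiredoxin that restores overoxidized peroxiredoxins (ENSG00000271303, chromosome 20, 646615 to 653200, minus strand), stood at 45.4, 44.2 and 40.9 FPKM at 0 mM, 49.8, 48.1 and 47.9 FPKM at 20 mM and 56.9, 51.5 and 46.6 FPKM at 40 mM. The libraries with metformin all lay above those without. It was at 0.16 ± 0.07 at 20 against 0 mM (edgeR adjusted p = 0.1), and passed when a 40 mM library, replicate 1 (adjusted p = 0.046) or 3 (adjusted p = 0.029), was left out. It rose by 0.21 ± 0.07 at 40 against 0 mM (adjusted p = 0.019), a call lost with replicate 3 of 0 mM left out (0.17, adjusted p = 0.079) and with replicate 1 of 40 mM left out (0.14, adjusted p = 0.073). A same-strand gene listed at a mean of 0.0247 FPKM overlaps it and holds 84.5% of its 100-base words, so its level depends on how shared reads were assigned.

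ME1, the cytosolic malic enzyme that makes NADPH (ENSG00000065833, chromosome 6, 83210402 to 83431051, minus strand), had small and tightly replicated differences. It stood at 20.1, 20.2 and 21.0 FPKM at 0 mM, 22.4, 22.7 and 23.0 FPKM at 20 mM and 25.4, 24.3 and 24.7 FPKM at 40 mM, with no overlap between doses. It rose by 0.15 ± 0.04 at 20 against 0 mM (edgeR adjusted p = 0.013), lost without replicate 2 of 0 mM (0.14, adjusted p = 0.055), and by 0.25 ± 0.04 at 40 against 0 mM (adjusted p = 2.7e-04). At 40 against 20 mM it was at 0.10 ± 0.04 (adjusted p = 0.083), and was called with total count scaling (0.13, adjusted p = 0.023) and by limma on log2 FPKM (0.12 and 0.13, adjusted p = 0.024 and 0.025). Its coefficient of variation was 2.15% at 40 mM, against 20.8% for TXNRD1 and a median of 6.95% over tested genes.

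**Figure D3:**
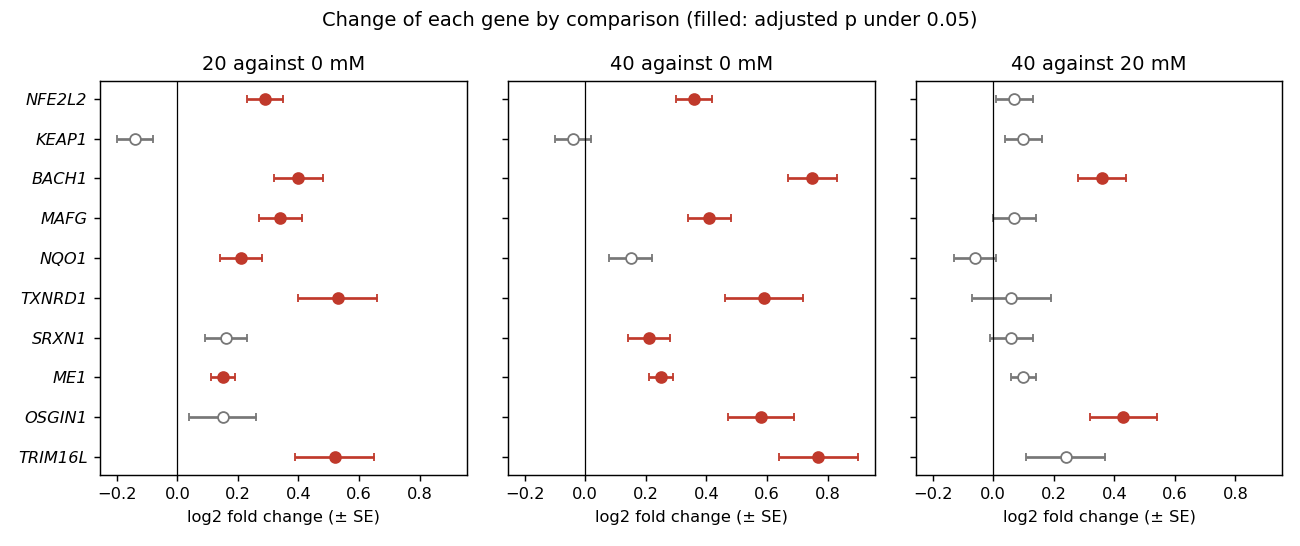
Log2 fold change with its SE (horizontal axis) of the 10 genes in the 3 comparisons, first dose over second, by edgeR with n = 3 per dose. Filled points have an adjusted p under 0.05. BACH1 is filled in all 3 panels, and BACH1 and TRIM16L lie furthest to the right at 40 against 0 mM, at 0.75 and 0.77.

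By FPKM alone, 8 of the 10 genes were higher without overlap at 20 against 0 mM and 1 was lower, KEAP1, where 25.6% of all tested genes were higher and 24.9% lower in this way. At 40 against 0 mM 8 were higher without overlap, and none lower, where 34.4% of tested genes were higher and 26.8% lower. At 40 against 20 mM 4 were, KEAP1, BACH1, ME1 and OSGIN1, and none lower, where 25.9% of tested genes were higher and 18% lower.

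Several targets shared a pattern among libraries of the same dose. TXNRD1, TRIM16L, OSGIN1, SRXN1 and MAFG were highest in replicate 1 at every dose. Replicate 1 of 40 mM was the highest of its dose for all 6 targets, where it was highest for 32.6% of tested genes. Replicate 3 was the lowest for 5 of 6 targets at 0 mM, 5 of 6 at 20 mM and 4 of 6 at 40 mM, where it was lowest for 32.6%, 34.9% and 42.5% of tested genes. Within a dose TXNRD1 and TRIM16L spread furthest at 40 mM, with replicate 1 at 0.29 and 0.28 above the dose mean on the log2 scale and replicate 3 at -0.31 and -0.32. NFE2L2 went the other way there, with replicate 3 at 0.14, and ME1 stayed within 0.03 of its mean. The mitochondrial share of counts, for replicates 1 to 3 in turn, was 2.76%, 3.08% and 3.53% at 0 mM, 3.63%, 3.68% and 3.77% at 20 mM, and at 40 mM it was 3.01%, 3.27% and 4.36%. The part of this share in the pattern was not tested, and the labels name no batch.

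**Figure D4:**
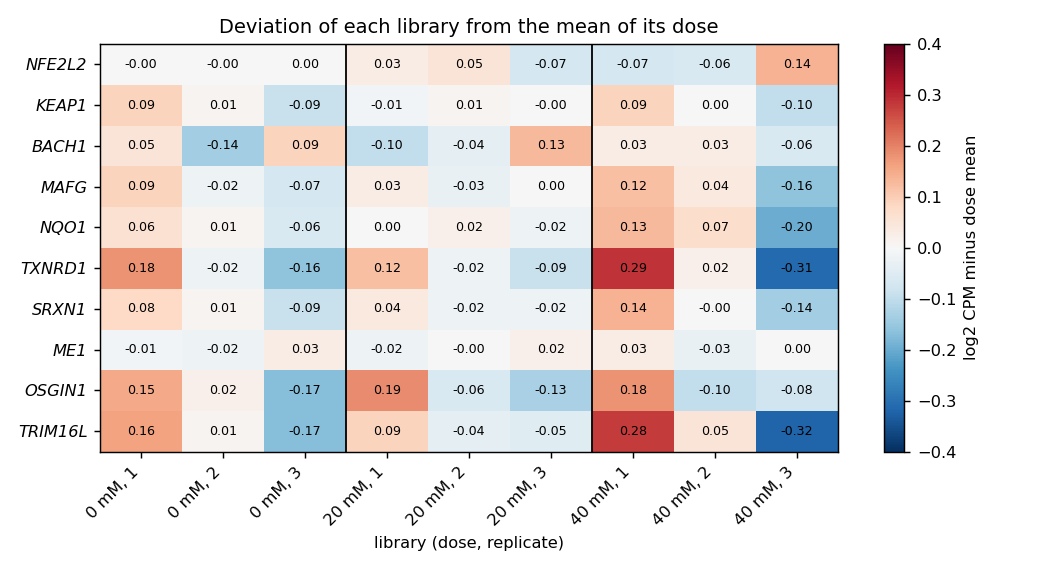
Deviation of each library from the mean of its dose (color and number, log2 CPM) for the 10 genes (rows) in the 9 libraries (columns, dose and replicate). TXNRD1 and TRIM16L run from 0.29 and 0.28 in replicate 1 to -0.31 and -0.32 in replicate 3 at 40 mM, and ME1 stays within 0.03 of 0.

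Likeness of pattern was measured as the root mean square difference of centred log2 CPM over the 9 libraries, among 6982 tested genes with a mean of at least 5 FPKM. Nearest to NFE2L2 were RHOQ (0.033), MFSD12 (0.036) and DMWD (0.036), against a spread of 0.17 for NFE2L2 itself. Nearest to BACH1, whose own spread was 0.32, were CMTR2 (0.079), RIT1 (0.081) and ANO6 (0.081). Nearest to TXNRD1, whose own spread was 0.31, were FTH1P8 (0.074), TRIM16L (0.086) and TRIM16 (0.094). FTH1P8 is a processed pseudogene of ferritin heavy chain, whose reads it may share.

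Of 6 other CNC and small MAF factors, 4 were tested, and at 40 against 0 mM 3 rose and 1 fell, where 28.8% of all tested genes were called higher and 27.4% lower. MAFF rose there by 1.06 ± 0.07 (edgeR adjusted p = 1.0e-06), with 8.05, 7.63 and 6.76 FPKM at 40 mM and 3.34, 3.81 and 3.41 FPKM at 0 mM. The small MAF MAFK rose by 0.74 ± 0.12 (adjusted p = 3.4e-04) and NFE2L1, the CNC factor that controls proteasome genes, by 0.66 ± 0.05 (adjusted p = 1.2e-06). NFE2L3 fell by 0.32 ± 0.06 (adjusted p = 0.0015). At 20 against 0 mM MAFF rose by 0.61 ± 0.07 (adjusted p = 1.6e-04) and NFE2L1 by 0.49 ± 0.05 (adjusted p = 3.4e-05). MAFK was at 0.36 ± 0.12 (adjusted p = 0.04), a call lost in 6 of the 9 fits that left out a library, those without replicate 2 or 3 of 0 mM, any of 20 mM or replicate 2 of 40 mM (0.29 to 0.38, adjusted p = 0.053 to 0.13). BACH2 and NFE2 were under 1 FPKM on average and were not tested.

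Of 14 genes that set NRF2 protein turnover, all tested, 2 rose and 5 fell at 40 against 0 mM, where 56.2% of all tested genes were called in either direction. Without replicate 2 of 0 mM 4 were called, and with total count scaling 6 rose and 4 fell, so the balance of directions turned with the scaling. SQSTM1, the autophagy receptor that can bind KEAP1, rose by 0.58 ± 0.08 (edgeR adjusted p = 1.5e-04), with 200, 179 and 161 FPKM at 40 mM and 127, 119 and 106 FPKM at 0 mM. PALB2, a DNA repair protein that can bind KEAP1, fell by 0.62 ± 0.07 (adjusted p = 2.7e-05). AMER1, another KEAP1 binder, fell by 0.49 ± 0.06 (adjusted p = 6.7e-05), and the ligase scaffold CUL1 by 0.18 ± 0.04 (adjusted p = 0.0034). CUL3, the scaffold that works with KEAP1, was at 0.05 ± 0.04 (adjusted p = 0.29), and rose by 0.13 ± 0.04 at 40 against 20 mM (adjusted p = 0.034). RBX1, also of this list, fell by 0.36 ± 0.12 at 40 against 0 mM (adjusted p = 0.021). It stood at 9.95, 9.44 and 6.76 FPKM at 40 mM and 10.8, 11.1 and 10.8 FPKM at 0 mM. The values of CUL3 and RBX1 were not run under the alternatives. At 20 against 0 mM SQSTM1 rose and CUL1 and AMER1 fell, 3 of 14, where 31.6% of all genes were called. There 6 were called without replicate 3 of 40 mM, and SQSTM1 (0.31 ± 0.08, adjusted p = 0.017) missed the threshold with replicate 3 of 0 mM left out (adjusted p = 0.064) and with replicate 1 of 20 mM left out (adjusted p = 0.067). At 40 against 20 mM 3 rose and 1 fell, where 29.3% of all genes were called, and 2 were called without replicate 2 or 3 of 20 mM or replicate 1 of 40 mM.

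Further NRF2 targets were taken as a list of 40 genes, of which 36 were tested and AKR1B10, GPX2, CYP4F11 and NR0B1 were below the limit of 1 FPKM. At 20 against 0 mM 16 rose and 3 fell, or 52.8% called, with a median of 0.21. At 40 against 0 mM 18 rose and 4 fell, or 61.1% called, with a median of 0.16. At 40 against 20 mM 10 rose and 7 fell, or 47.2% called. With total count scaling 13 rose and 4 fell there, and 11 were called without replicate 2 or without replicate 3 of 20 mM. The shares called of all tested genes are those given above, 31.6%, 56.2% and 29.3%.

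The cystine importer SLC7A11, which ATF4 also induces, rose by 1.01 ± 0.05 at 40 against 0 mM (edgeR adjusted p = 1.1e-07), and stood at 12.4, 12.3 and 13.0 FPKM at 0 mM, 27.1, 29.8 and 28.9 FPKM at 20 mM and 27.3, 26.1 and 24.7 FPKM at 40 mM. By edgeR SLC7A11 rose by 1.18 ± 0.05 at 20 against 0 mM (adjusted p = 1.2e-07). It fell by 0.17 ± 0.05 at 40 against 20 mM (adjusted p = 0.027), with overlapping libraries, a call kept under 10 of 18 alternatives. At 40 against 0 mM the lipase ABHD4 rose by 1.24 ± 0.08 (adjusted p = 5.7e-07) and the export pump ABCC2 by 0.68 ± 0.05 (adjusted p = 1.2e-06). PGD, an NADPH-making enzyme of the pentose phosphate pathway, fell by 0.53 ± 0.04 (adjusted p = 1.1e-06), with 32.1 ± 0.738 FPKM at 40 mM and 45.4 ± 0.380 FPKM at 0 mM (SD, n = 3 each). The subunits of the first enzyme of glutathione synthesis were not called in this comparison, GCLC at 0.15 ± 0.06 (adjusted p = 0.055) and GCLM at -0.05 ± 0.13 (adjusted p = 0.75). GCLC was called without replicate 3 of 40 mM (0.19, adjusted p = 0.017), with a filter at 5 FPKM (0.18, adjusted p = 0.026), with total count scaling (0.20, adjusted p = 0.015) and by limma on log2 FPKM (0.16 and 0.18, adjusted p = 0.037 and 0.036). GCLM was at 0.08 without replicate 3 of 40 mM. At 40 against 20 mM GCLC rose by 0.25 ± 0.06 (adjusted p = 0.011).

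HMOX1, the heme-degrading oxygenase that BACH1 represses, had the largest SE of the named genes at 40 against 0 mM. It stood at 29.4, 22.5 and 18.8 FPKM at 0 mM, 43.3, 31.1 and 26.2 FPKM at 20 mM and 116, 58.4 and 43.0 FPKM at 40 mM. Replicate 1 was its highest library at each dose, as for TXNRD1. It rose by 1.59 ± 0.33 at 40 against 0 mM (edgeR adjusted p = 0.0017), and by 1.07 to 1.85 with 1 library left out. At 20 against 0 mM it was at 0.51 ± 0.32 (adjusted p = 0.26), with overlapping libraries. At 40 against 20 mM it rose by 1.08 ± 0.32 (adjusted p = 0.028), also with overlapping libraries, a call kept under 12 of 18 alternatives.

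**Figure D5:**
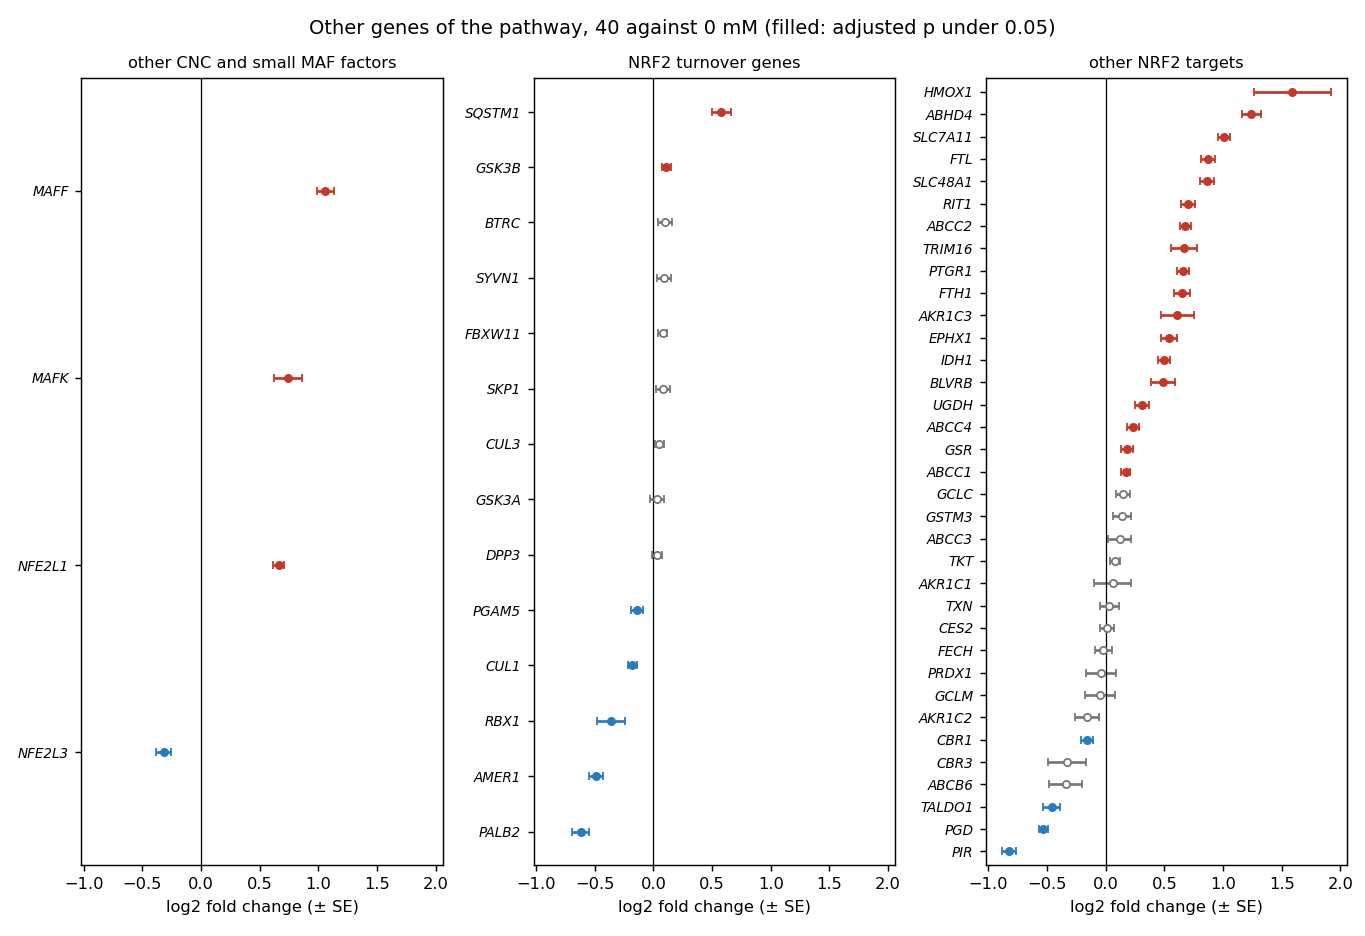
Log2 fold change with its SE (horizontal axis) at 40 against 0 mM for tested genes of 3 lists, with 1 further target not shown, ordered by value, by edgeR with n = 3 per dose. Filled points have an adjusted p under 0.05, red higher and blue lower at 40 mM. HMOX1 leads the further targets at 1.59 with the widest error, PIR ends them at -0.82, and GCLM and GCLC lie open near 0.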

How the data were processed

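Strand-specific (dUTP) libraries of oligo(dT)-selected RNA were sequenced from both ends, per the labels' protocols. Read counts per gene and library were deposited by the authors, per the file headers, with 65738242 to 75629413 counts per library. The authors deposited FPKM beside them, also per the file headers. Per the submitters' processing notes StringTie 2.1.6 was among the tools. Aligner, annotation, build and strand setting: not given in the sources used here. Among the 10 genes, 8 share a start or end with GENCODE 29 (GRCh38) and 2 share both.

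Genes with a mean of at least 1 FPKM over the 9 libraries were tested, 12394 of 37118, by the quasi-likelihood test of edgeR, with TMM scaling of the counts and all 9 libraries in 1 fit. Calls needed a Benjamini-Hochberg adjusted p under 0.05 over all tested genes. An SE was taken as the absolute log2 fold change divided by the root of F. Log2 CPM used a prior count of 1. Software was edgeR 4.0.16, with DESeq2 1.42.0 and limma 3.58.1 for alternatives, in R 4.3.3. The fits were also run on simulated counts drawn independently for each gene and library. Such counts do not cover patterns that genes share within a library.

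The members and lists were chosen with earlier results of these data known. Named genes are the 10 members, up to 4 called genes with the smallest p at 40 against 0 mM from each other list, 6 genes set by name, and the 3 genes nearest in pattern to NFE2L2, BACH1 and TXNRD1. CUL3, RBX1, PIR and the genes under other observations were named after their values were seen. Of the further targets, 1 is counted but not reported here by name. Alternatives were other filters, scalings, tests, thresholds and samples, a replicate block, and leaving out each library. Within every dose, pairs of libraries differed by more than counting noise.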

Additional observations from a re-analysis of the deposited data

How the results depend on the processing

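Under each alternative that tested them at an adjusted p under 0.05, BACH1, MAFG, NFE2L2, TXNRD1 and TRIM16L kept their calls against 0 mM at both doses, and ME1 and OSGIN1 at 40 against 0 mM. With no filter 1 member, 11 other targets and 2 turnover genes were called at 40 against 20 mM, and 4 turnover genes at 40 against 0 mM. A filter at 5 FPKM, which drops BACH1 and OSGIN1, left 0 members called at 40 against 20 mM by edgeR, and 2517, 4245 and 2367 genes called for 20 against 0, 40 against 0 and 40 against 20 mM. With an adjusted p under 0.01, 3 members and 2167 genes were called at 20 against 0 mM, 4 turnover genes at 40 against 0 mM, and 1 member, 9 other targets, 2 turnover genes and 1858 genes at 40 against 20 mM. No filter also lost SRXN1 at 40 against 0 mM, OSGIN1 at 40 against 20 mM, and MAFK and SQSTM1 at 20 against 0 mM (adjusted p = 0.07, 0.057, 0.12 and 0.061), and limma on log2(FPKM + 1) lost MAFK at 20 against 0 mM (adjusted p = 0.055). With only the 6 libraries compared, SRXN1 was called at 20 against 0 mM (adjusted p = 0.02) and 6 turnover genes were called at 20 against 0 mM. By medians the log2 difference of BACH1 per NFE2L2 at 20 against 0 mM was -0.03.

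Leaving out 1 library at a time gave 5 to 9 members called at 20 against 0 mM, 7 to 9 at 40 against 0 mM and 1 to 4 at 40 against 20 mM. It gave 2 to 6 turnover genes at 20 against 0 mM, 4 to 7 at 40 against 0 mM and 2 to 5 at 40 against 20 mM, where other targets ran from 11 to 17 and all genes from 2408 to 4065. In the same fits at 40 against 20 mM, NFE2L2 ran from -0.00 to 0.10, NQO1 from -0.13 to 0.03, TXNRD1 from -0.09 to 0.21, SRXN1 from -0.02 to 0.12, GCLM from -0.14 to 0.16 and AMER1 from -0.05 to 0.01. At 40 against 0 mM, KEAP1 ran from -0.09 to 0.01 and GCLM from -0.22 to 0.08. AMER1 at 40 against 20 mM was 0.03 with total count scaling and 0.01 and 0.02 by limma on log2(FPKM + 1) and log2(FPKM + 0.1), and KEAP1 at 40 against 0 mM was 0.01 with total count scaling. The cause of these shifts was not tested.

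Over all tested genes, deviations of same-numbered libraries correlated between -0.10 and 0.19 over 9 pairs. Not every library correlated best with its own number, and the main fit used no pairing. These correlations do not describe single genes, and TXNRD1 was highest in replicate 1 and lowest in replicate 3 at every dose. Whether the numbers mark libraries handled together is not given by the labels and was not tested. With the replicate number as a block, 8, 9 and 2 members and 4245, 7215 and 3982 genes were called in the 3 comparisons, with SRXN1 at 20 against 0 mM and NQO1 at 40 against 0 mM added. The block also called HMOX1 at 20 against 0 mM (0.50, adjusted p = 0.015) and GCLC at 40 against 0 mM (0.15, adjusted p = 0.047).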

Other observations

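Within the further NRF2 targets, genes of iron and heme handling, of NADPH supply and of the pentose phosphate pathway are given here as a description. They were chosen after their values were seen and not run under the alternatives. FTL, the ferritin light chain, stood at 1600, 1520 and 1410 FPKM at 0 mM, 2230, 2030 and 2000 FPKM at 20 mM and 2900, 2640 and 2930 FPKM at 40 mM, with no overlap between doses. It rose by 0.46 ± 0.06 at 20 against 0 mM and 0.87 ± 0.06 at 40 against 0 mM (edgeR adjusted p = 3.6e-04 and 1.3e-06). FTH1, the ferritin heavy chain, rose by 0.38 ± 0.07 and 0.65 ± 0.07 in the same comparisons (adjusted p = 0.0022 and 1.9e-05), and pseudogenes may share its reads. SLC48A1, a heme transporter, stood at 5.84 ± 0.0922 FPKM at 40 mM and 3.15 ± 0.183 FPKM at 0 mM (SD, n = 3 each) and rose by 0.86 ± 0.06 (adjusted p = 1.3e-06). FECH, the last enzyme of heme synthesis, rose by 0.21 ± 0.07 at 20 against 0 mM (adjusted p = 0.034), was at -0.02 ± 0.07 at 40 against 0 mM (adjusted p = 0.85) and fell by 0.23 ± 0.07 at 40 against 20 mM (adjusted p = 0.026). BLVRB rose by 0.40 ± 0.10 at 20 against 0 mM and 0.49 ± 0.10 at 40 against 0 mM (adjusted p = 0.014 and 0.0021). ABCB6 went the other way, at -0.34 ± 0.14 at 40 against 0 mM (adjusted p = 0.06). It fell by 0.45 ± 0.14 at 40 against 20 mM (adjusted p = 0.038), with overlapping libraries.

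The genes of NADPH supply and of the pentose phosphate pathway named here did not move one way. IDH1, the cytosolic isocitrate dehydrogenase, rose by 0.50 ± 0.05 at 40 against 0 mM (edgeR adjusted p = 2.2e-05), as ME1 did by 0.25 ± 0.04. TALDO1, a transaldolase of the pentose phosphate pathway, fell by 0.46 ± 0.07 (adjusted p = 2.2e-04), as PGD did by 0.53 ± 0.04, while TKT, the transketolase, was at 0.08 ± 0.04 (adjusted p = 0.086).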
